A study of Macaca mulatta with 34 samples.

Results

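GPNMB and 9 further genes that mark lipid-laden macrophages were followed in the deep cerebellar nuclei (DCN) of rhesus macaques. The genes were GPNMB, CHIT1, CD68, MSR1, LGALS3, TREM2, TYROBP, APOE, LPL and SPP1, 10 of the 34847 gene identifiers in the count tables. Each was found by matching its symbol to 1 Ensembl macaque identifier (ENSMMUG00000012648 for GPNMB and ENSMMUG00000008709 for CHIT1), and each passed the filter on low counts in every DCN comparison. The genes were chosen by their measured differences between AAV.miS1 and vehicle and between StufferOnly and empty capsid, so their values in those comparisons are a description and carry no p-value.

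Macrophages and microglia that engulf myelin, dying cells or lipoproteins load their lysosomes with lipid, store cholesterol esters in droplets and hand cholesterol out again on apolipoproteins. In brain, such cells are known from demyelinated and injured tissue, and a receptor complex of TREM2 with its adaptor TYROBP senses the lipids and drives the programme. GPNMB is a transmembrane glycoprotein of lysosomes and melanosomes that is used as a marker of this state, and CHIT1 is a chitinase that lipid-laden macrophages secrete.

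Study 1 asked what caused toxicity after AAV.miS1, and held DCN libraries from 6 animals given AAV.miS1, a recombinant AAV2/1 vector with an RNA interference construct, and 4 given vehicle. Study 2 characterised the immune response to further constructs, with DCN libraries from 3 animals each given StufferOnly, miSCA7Stuffer, intmiS1 or empty capsid. The constructs of Study 2 differ in the cargo that the capsid carries. All animals, controls included, were injected into the DCN under MRI guidance, and the labels state no dose, age or time after injection.

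Values are CPM, a gene's count scaled to a common library total after TMM normalization, which serve to compare libraries for 1 gene and not genes with each other, since gene length was not used. Study 1 DCN libraries held 2049685 to 4810852 counts in genes, apart from vehicle replicate 2 with 87741, and Study 2 libraries held 4858179 to 39792653. That vehicle library stood apart in several of the genes. It also enters the vehicle ranges and means below where it is not named. Reads of the vector, relative to the counts in genes (RPM), were 23.1 to 586 RPM in AAV.miS1 libraries, against 0.336 to 11.4 in vehicle libraries. StufferOnly libraries held 247.5 to 625 RPM and intmiS1 libraries 44.6 to 648 RPM, against 0.151 to 0.351 RPM with empty capsid. Replicates 2 and 3 of miSCA7Stuffer held 349 and 257 RPM, whereas its replicate 1 held 1.64 RPM. Tests of miSCA7Stuffer are given with and without replicate 1, whereas its ranges and means hold all its libraries. The tissue is bulk DCN, in which more cells of a type and more RNA per cell cannot be told apart.

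GPNMB was far higher in most AAV.miS1 and StufferOnly libraries than in their controls. In Study 1 it was 214 CPM at the lowest, 2617 at the median and 15328 at the highest across AAV.miS1 libraries, against 18.5, 475.6, 37.7 and 2.64 CPM in vehicle replicates 1 to 4. In Study 2 it was 3117, 5438 and 5247 CPM with StufferOnly, against 6.48, 6.85 and 2.89 with empty capsid. The StufferOnly and empty capsid libraries were far apart, whereas AAV.miS1 replicate 5, the lowest of its group, lay below vehicle replicate 2. The 475.6 CPM of that vehicle library rest on 46 reads (exact Poisson 95% interval 348.2 to 634.4 CPM, counting error only). The miSCA7Stuffer libraries held 6.93, 2963 and 3796 CPM. Replicate 1 of miSCA7Stuffer was thus at the level of empty capsid and replicates 2 and 3 at that of StufferOnly. The intmiS1 libraries held 36.2, 103 and 10.9 CPM, each above the highest empty capsid library and far under the high libraries of the other constructs.

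CHIT1, the macrophage chitinase, was likewise higher in most AAV.miS1 and StufferOnly libraries than in their controls. AAV.miS1 libraries held 141 CPM at the lowest, 1663 at the median and 8819 at the highest, against 7.32, 237.8, 17.9 and 3.96 in vehicle replicates 1 to 4. StufferOnly libraries held 582, 3504 and 2076 CPM, against 1.51, 0.752 and 0.730 with empty capsid. Again AAV.miS1 replicate 5 lay below vehicle replicate 2, whose value rests on 23 reads. The StufferOnly and empty capsid libraries did not overlap. CHIT1 was 1.34, 1919 and 1195 CPM with miSCA7Stuffer and 11.6, 12.8 and 3.899 CPM in intmiS1 libraries. The ratio of CHIT1 to GPNMB counts in the high libraries varied, from 0.187 in StufferOnly replicate 1 to 0.648 in miSCA7Stuffer replicate 2 in Study 2 and from 0.554 to 1.13 over the AAV.miS1 libraries.

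**Figure D1:**
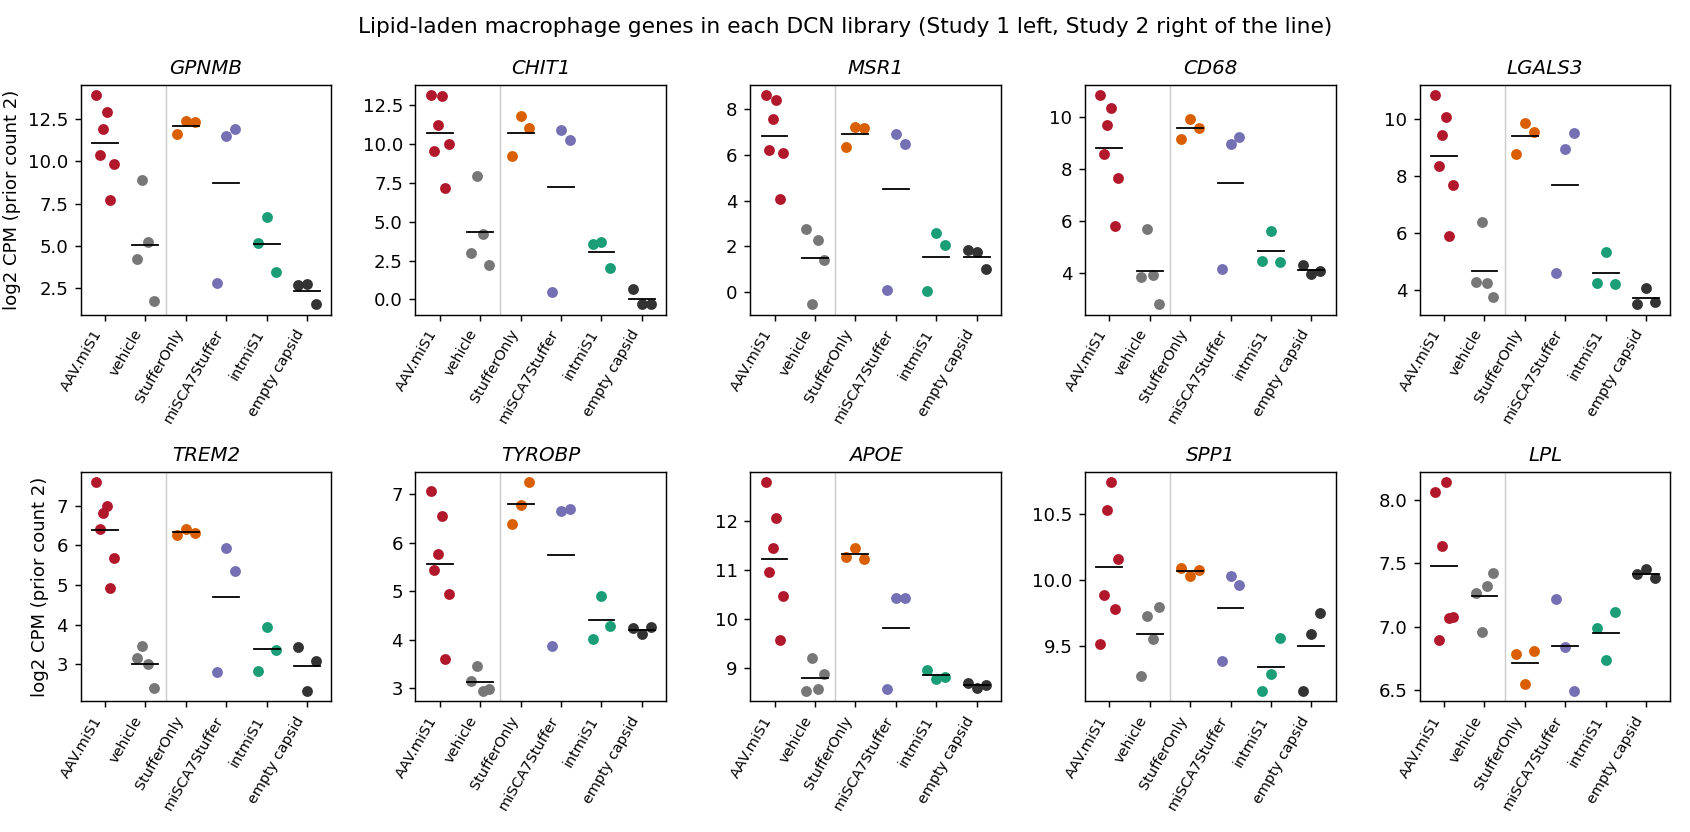
Level of each gene in each DCN library, as log2 CPM with a prior count of 2 on the y axis and the groups on the x axis, with 1 point per library in order of replicate and a bar at the group mean; panels have their own y range. GPNMB and CHIT1 show the widest gap, SPP1 and LPL stay within a narrow range, and miSCA7Stuffer replicate 1 sits with empty capsid in most panels.

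The next genes serve lipid uptake and the lysosome. CD68, a glycoprotein of macrophage lysosomes, was 56.1 CPM at the lowest, 605 at the median and 1828 at the highest in AAV.miS1 libraries, against 13.8, 51.7, 14.5 and 6.27 in vehicle replicates 1 to 4. It was 576, 975 and 772 CPM with StufferOnly, 17.9, 495 and 606 with miSCA7Stuffer and 21.7, 48.7 and 21.7 with intmiS1, against 19.97, 15.6 and 16.8 with empty capsid. Each AAV.miS1 library lay above each vehicle library in CD68, but the 5 reads of vehicle replicate 2 allow up to 120.6 CPM (95% interval), above AAV.miS1 replicate 5, and the StufferOnly and empty capsid libraries did not overlap.

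MSR1, the class A scavenger receptor that takes up modified lipoprotein, was 16.2 CPM at the lowest, 128 at the median and 383 at the highest in AAV.miS1 libraries, against 6.02, 0, 4.19 and 1.98 in vehicle replicates 1 to 4. The 0 reads in vehicle replicate 2 allow up to 31.0 CPM (3 counts), so that library cannot be placed relative to AAV.miS1 replicate 5. MSR1 was 81.0, 149 and 143 CPM with StufferOnly, 1.01, 118 and 88.0 with miSCA7Stuffer and 0.953, 5.90 and 4.09 with intmiS1, against 3.49, 3.35 and 1.92 with empty capsid. The lowest values of MSR1 in Study 2 were thus in intmiS1 replicate 1 (5 reads) and in miSCA7Stuffer replicate 1. LGALS3, a galectin that binds damaged lysosomes and is secreted by phagocytes, was 58.5 CPM at the lowest, 511 at the median and 1816 at the highest in AAV.miS1 libraries, against 18.9, 82.7, 18.5 and 12.9 in vehicle replicates 1 to 4. AAV.miS1 replicate 5 lay below vehicle replicate 2, whose value rests on 8 reads. It was 441, 920.1 and 739 CPM with StufferOnly, 24.2, 499.9 and 732 with miSCA7Stuffer and 18.9, 40.7 and 18.5 with intmiS1, against 11.3, 16.9 and 12.1 with empty capsid. For LGALS3 every vector library of Study 2, miSCA7Stuffer replicate 1 included, lay above the highest empty capsid library.

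TREM2, the lipid-sensing receptor, was 29.8 CPM at the lowest, 97.6 at the median and 192 at the highest in AAV.miS1 libraries, against 8.18, 10.3, 7.27 and 4.62 in vehicle replicates 1 to 4. It was 76.7, 85.6 and 79.2 CPM with StufferOnly, 6.90, 61.1 and 40.7 with miSCA7Stuffer and 7.05, 15.1 and 10.2 with intmiS1, against 10.7, 4.93 and 8.43 with empty capsid. The 3 StufferOnly libraries were close together in TREM2 and did not overlap with empty capsid, whereas miSCA7Stuffer and intmiS1 each did. The AAV.miS1 and vehicle values did not overlap, although the 1 read of vehicle replicate 2 allows up to 57.61 CPM (95% interval). That limit lies above AAV.miS1 replicates 5 and 6.

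TYROBP, the adaptor, was 11.5 CPM at the lowest, 47.9 at the median and 134 at the highest in AAV.miS1 libraries, against 8.18, 10.3, 6.99 and 7.26 in vehicle replicates 1 to 4. It was 83.5, 110.0 and 152 CPM with StufferOnly, 14.6, 100.5 and 103 with miSCA7Stuffer and 16.0, 29.9 and 19.4 with intmiS1, against 18.9, 17.2 and 19.0 with empty capsid. In vehicle replicate 2 the TREM2 and TYROBP values are 1 read each, so the receptor pair cannot be read in the library where GPNMB, CHIT1 and LGALS3 stood above the other vehicle libraries. APOE, the main apolipoprotein of brain and a carrier of exported cholesterol, was 759 CPM at the lowest, 2390 at the median and 7056 at the highest in AAV.miS1 libraries, against 369, 589, 380.2 and 468 in vehicle replicates 1 to 4. It was 2463, 2803 and 2390 CPM with StufferOnly, 381, 1369 and 1366 with miSCA7Stuffer and 494, 440.1 and 452 with intmiS1, against 415, 388 and 405 with empty capsid. Astrocytes also express APOE, and the control libraries already held at least 369 CPM of it.

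LPL and SPP1 departed from the other genes. LPL, the lipase that frees fatty acids from lipoprotein triglyceride, was 118 CPM at the lowest, 166 at the median and 282 at the highest in AAV.miS1 libraries, against 154, 124, 159.6 and 172 in vehicle replicates 1 to 4. It was 110.5, 93.4 and 112 CPM with StufferOnly, 149, 115 and 90.1 with miSCA7Stuffer and 127, 107 and 139 with intmiS1, against 171, 175 and 167 with empty capsid. In Study 2 each vector library was lower in LPL than each empty capsid library, and in Study 1 the groups overlapped.

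SPP1, the secreted matrix protein osteopontin, was 732 CPM at the lowest, 1042 at the median and 1706 at the highest in AAV.miS1 libraries, against 619.6, 848, 749 and 886 in vehicle replicates 1 to 4. It was 1089, 1047 and 1075 CPM with StufferOnly, 669, 1043 and 994 with miSCA7Stuffer and 573, 626 and 756 with intmiS1, against 572, 771 and 860.2 with empty capsid. SPP1 overlapped between AAV.miS1 and vehicle and was higher in each StufferOnly library than in each empty capsid library. The label of lipid-laden macrophage genes was not tested by these values, since they chose the genes and other genes were high in the same libraries.

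**Figure D2:**
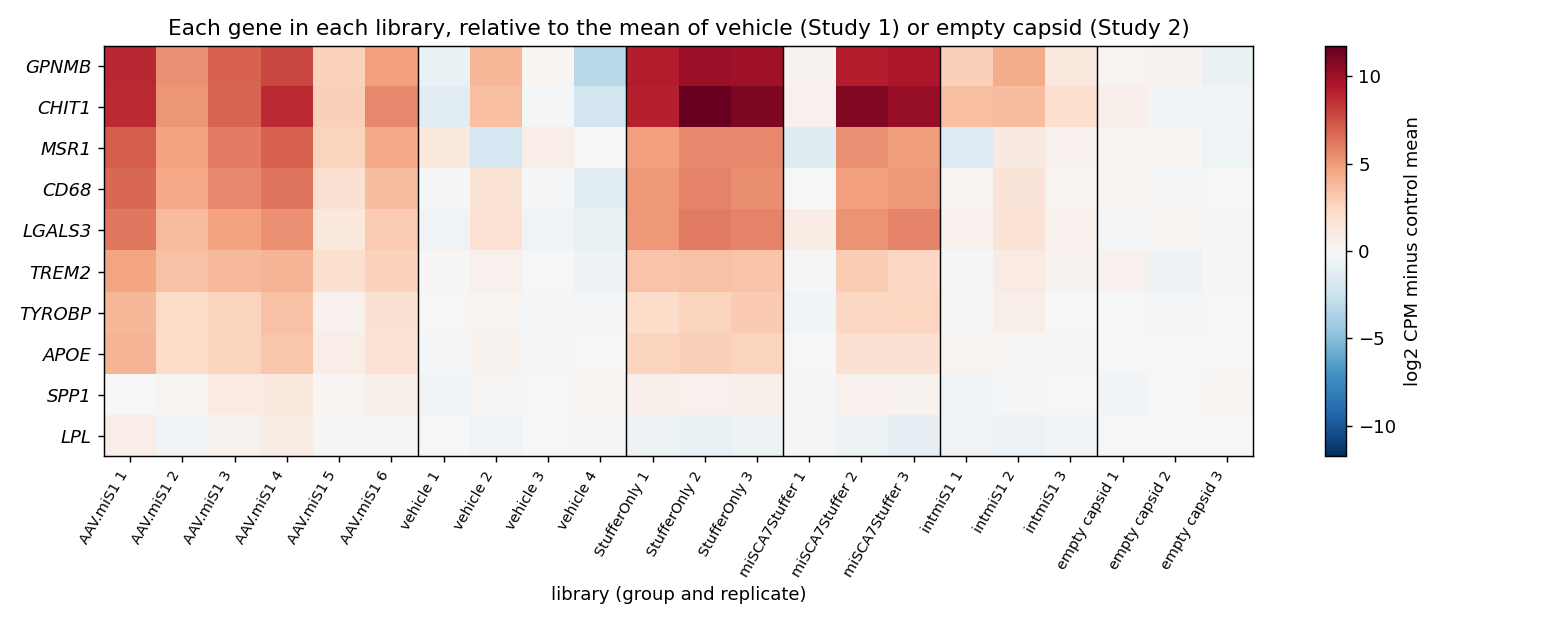
Heat map of the 10 genes (rows) in the 22 DCN libraries (columns), with colour showing log2 CPM minus the mean of the study's own control group, vehicle in Study 1 and empty capsid in Study 2. The upper 8 rows are red in AAV.miS1, StufferOnly and miSCA7Stuffer replicates 2 and 3, paler in AAV.miS1 replicate 5, and near white in miSCA7Stuffer replicate 1.

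Between AAV.miS1 and vehicle, the fitted log2 fold changes were 6.67 for CHIT1 (SE 1.73), 5.78 for CD68 (SE 1.09), 5.64 for GPNMB (SE 1.70), 5.48 for MSR1 (SE 1.01) and 4.997 for LGALS3 (SE 1.04). They were 3.86 for TREM2 (SE 0.57), 3.01 for TYROBP (SE 0.66), 2.77 for APOE (SE 0.58), 0.57 for SPP1 (SE 0.26) and 0.29 for LPL (SE 0.27). Their median was 4.43, beside 0.02 over all 13383 genes tested, and 5 of the 10 genes had a higher point value in each AAV.miS1 library than in each vehicle library, as had 7.46% of all genes tested. For each of these 5 the counting interval of vehicle replicate 2 reaches above the lowest AAV.miS1 library; at an adjusted p under 0.05, 7.5% of all genes were called. These values chose the genes, and nothing is read from them. GPNMB moved most when vehicle replicate 2 was left out, to 7.95 (SE 1.77).

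The AAV.miS1 libraries were not alike. The median over the 10 genes of log2 CPM minus the vehicle mean was 5.37, 3.54, 4.28, 4.69, 1.48 and 2.85 in replicates 1 to 6. Replicates 5 and 6, the lowest, are also the AAV.miS1 libraries with over 15% unmapped reads (19.8% and 21.3%), as are vehicle replicates 2, 3 and 4 (24.3% to 31.4%). Within those 5 libraries, an alternative added after seeing the data, the log2 fold changes were 4.85 for CHIT1, 3.70 for MSR1, 3.44 for CD68, 3.41 for GPNMB, 2.85 for LGALS3, 2.69 for TREM2, 1.49 for TYROBP and 1.25 for APOE, and their median over all 10 genes was 2.77. LPL turned to -0.25 there (SE 0.19). The libraries under 15% hold vehicle replicate 1 alone on the control side and were not fitted on their own. The part of the unmapped share in the differences was not tested further.

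Between StufferOnly and empty capsid, the log2 fold changes were 10.98 for CHIT1 (SE 2.26), 9.73 for GPNMB (SE 1.91), 5.71 for LGALS3 (SE 1.06), 5.47 for CD68 (SE 1.06) and 5.41 for MSR1 (SE 1.30). They were 3.32 for TREM2 (SE 0.68), 2.66 for APOE (SE 0.43), 2.65 for TYROBP (SE 0.62), 0.54 for SPP1 (SE 0.21) and -0.70 for LPL (SE 0.18). Their median was 4.36, beside 0.02 over all 20882 genes tested. Of the 10 genes, 9 were higher in each StufferOnly library than in each empty capsid library and LPL was lower in each, as were 26.8% and 22.3% of all genes tested. This comparison too chose the genes.

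**Figure D3:**
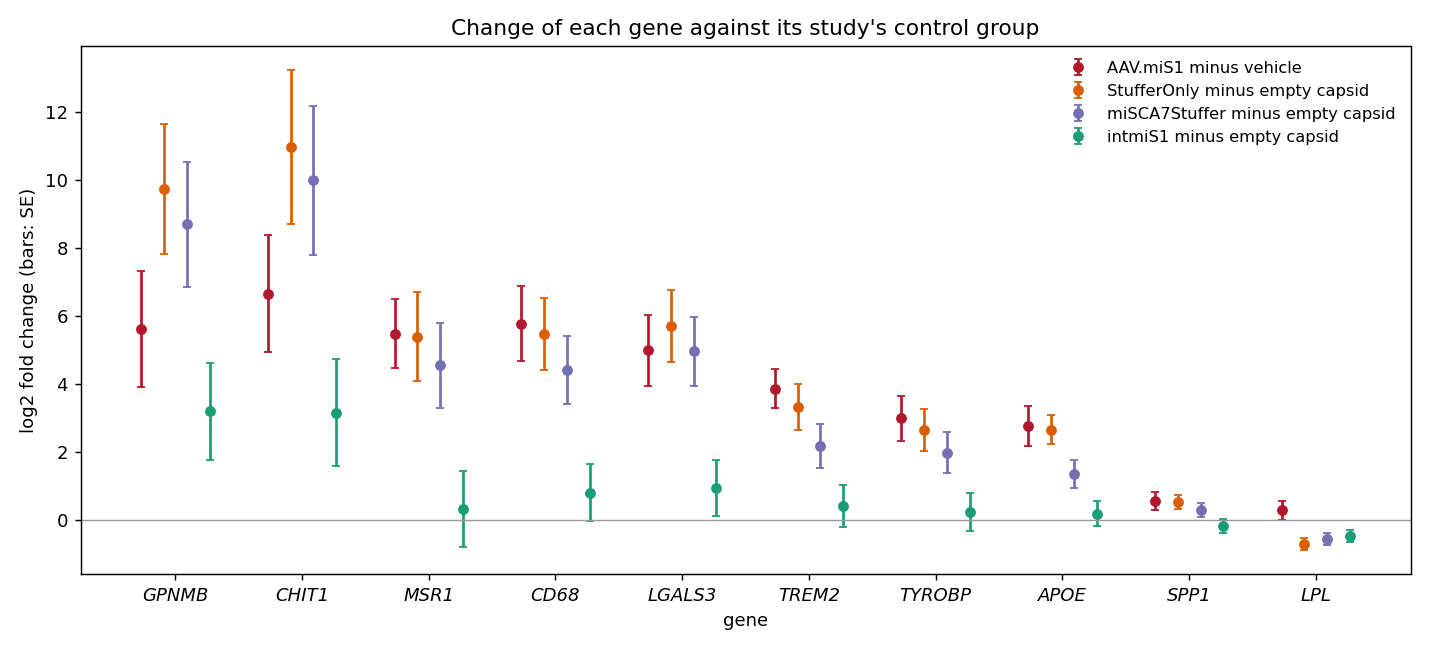
Fitted log2 fold change (y axis) of each gene (x axis) in the 4 comparisons with a control group, with SE as bars. CHIT1 and GPNMB are highest in the 3 Study 2 comparisons, CHIT1 and CD68 in AAV.miS1, LPL lies under 0 in the 3 Study 2 comparisons, and the intmiS1 values lie nearest to 0 for each gene but LPL.

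In miSCA7Stuffer against empty capsid, the 8 genes that were high elsewhere were high in replicates 2 and 3 and not in replicate 1, and none of the 10 passed the test over all 3 libraries. This comparison did not name the genes, but it shares its empty capsid libraries with the StufferOnly comparison. The log2 fold changes were 10.00 for CHIT1 (SE 2.19, adjusted p = 0.134, edgeR quasi-likelihood F test with Benjamini-Hochberg adjustment), 8.71 for GPNMB (SE 1.83, adjusted p = 0.134) and 4.97 for LGALS3 (SE 1.02, adjusted p = 0.134). The others ran from 4.56 for MSR1 (SE 1.25) and 4.42 for CD68 (SE 1.01) to 0.30 for SPP1 (SE 0.21, adjusted p = 0.399) and -0.54 for LPL (SE 0.18, adjusted p = 0.149). Of the 10, 0 were called, 9 had an unadjusted p under 0.05 and 8 were called by DESeq2, all but LPL and SPP1. Of all 20882 genes, 1 was called (0.00479%), TMEM266, while 4808 had an unadjusted p under 0.05 and DESeq2 called 2339 (11.2%). GPNMB and LGALS3 were higher in each miSCA7Stuffer library than in each empty capsid library and LPL lower in each, as were 12.2% and 12.7% of all genes.

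Replicate 1 decided that outcome. Without it, 9 of the 10 were called, all but SPP1, with GPNMB at 9.26 (SE 0.45, adjusted p = 7.947e-06, edgeR), APOE at 1.73 (SE 0.12, adjusted p = 3.672e-05) and LPL at -0.77 (SE 0.14, adjusted p = 0.003685). With that library out, 6983 genes were called in all, 32.42% of those tested. The library left out was low in genes that were high in replicates 2 and 3. Leaving it out favours such calls, so they are no independent test of the genes. The median over the 10 genes of log2 CPM minus the empty capsid mean was -0.10 in replicate 1, against 3.91 and 3.70 in replicates 2 and 3. Its vector reads, 1.64 RPM against 349 and 257 RPM in replicates 2 and 3, moved with these values. An injection that missed, tissue outside the injected area and a wrong label cannot be told apart for the library labelled miSCA7Stuffer replicate 1, so the values with it may not describe tissue that the construct reached.

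**Figure D4:**
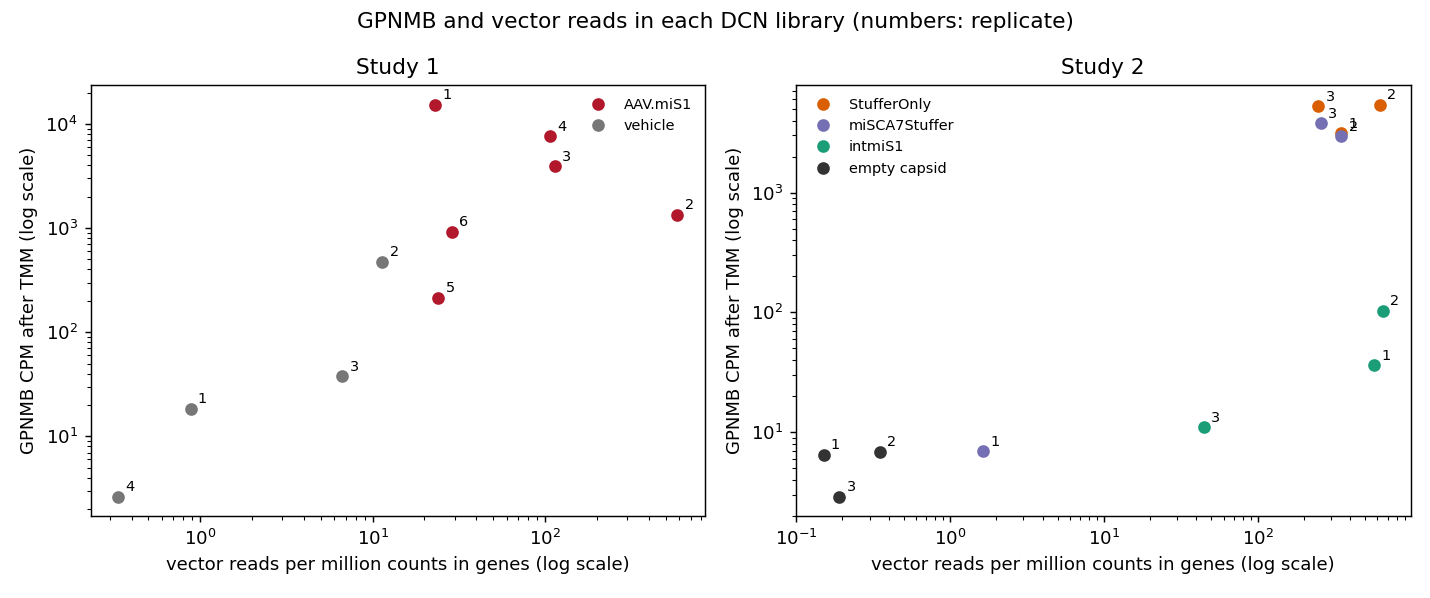
GPNMB in CPM (y axis, log scale) against vector reads in RPM of the counts in genes (x axis, log scale) in each DCN library, numbered by replicate, with Study 1 on the left and Study 2 on the right. The vector feature is the same in Study 1, StufferOnly and miSCA7Stuffer libraries, though counted by another program in each study, and another one in intmiS1 replicates 1 and 2 than in replicate 3, so x values do not compare across studies or among intmiS1 libraries. The point of miSCA7Stuffer replicate 1 lies near empty capsid in GPNMB but to its right in vector reads (1.64 RPM, against 0.151 to 0.351 RPM). AAV.miS1 replicate 1 has the highest GPNMB (15328 CPM) and the lowest vector RPM of its group (23.1, next to 24.1 in replicate 5). That library also held the lowest neuron and astrocyte marker sums of the Study 1 DCN libraries (24.5 and 2639 CPM).

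In intmiS1 against empty capsid none of the genes passed the test, and GPNMB and CHIT1 had the largest estimates, with wide errors. GPNMB was 50.2 ± 47.8 CPM with intmiS1 and 5.41 ± 2.19 CPM with empty capsid (SD, n = 3 each), a log2 fold change of 3.20 (SE 1.42, adjusted p = 0.576, edgeR quasi-likelihood F test). CHIT1 was 9.43 ± 4.83 CPM with intmiS1 and 0.998 ± 0.444 CPM with empty capsid, a log2 fold change of 3.17 (SE 1.57, adjusted p = 0.578, edgeR). CD68 differed by 0.81 (SE 0.84), LGALS3 by 0.95 (SE 0.83), APOE by 0.20 (SE 0.36), TREM2 by 0.42 (SE 0.61) and LPL by -0.46 (SE 0.18, adjusted p = 0.576). None of the 10 was called by edgeR or by DESeq2, and 2 had an unadjusted p under 0.05, GPNMB and LPL. Over all 21501 genes edgeR called 0 (0%), 1831 had an unadjusted p under 0.05 and DESeq2 called 52. The groups did not overlap for 5 genes that were higher with intmiS1 (GPNMB, CHIT1, APOE, CD68 and LGALS3) and for LPL, which was lower, as for 9.5% and 10.7% of all genes. Replicates 1 and 2 of intmiS1 were counted with another program than the other libraries of Study 2. The library counted like the rest, replicate 3, gave 1.02 for GPNMB (SE 1.78) and 1.94 for CHIT1 (SE 2.08) on its own, and it was assumed to vary like the other groups.

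The genes were chosen with earlier results of these data known, so the difference between intmiS1 and miSCA7Stuffer is no independent test of them. That difference did not name the genes, but it was fitted together with the StufferOnly and empty capsid libraries, which did. Over all libraries it was -6.83 for CHIT1 (SE 1.75, adjusted p = 0.141, edgeR quasi-likelihood F test), -5.50 for GPNMB (SE 1.56, adjusted p = 0.144), -4.02 for LGALS3 (SE 0.92, adjusted p = 0.129) and 0.08 for LPL (SE 0.18, adjusted p = 0.8292). None of the 10 passed, 9 had an unadjusted p under 0.05, DESeq2 called 7, and of all genes 0.00465% were called, again TMEM266 alone. Of all 21501 genes, 4393 had an unadjusted p under 0.05 and DESeq2 called 1467 (6.823%). The groups overlapped for each of the 10 genes, whereas 7.93% of all genes were higher and 8.94% lower with intmiS1 without overlap. Without miSCA7Stuffer replicate 1, 9 of the 10 were called lower with intmiS1, all but LPL, with GPNMB at -6.08 (SE 0.79, adjusted p = 0.0007605, edgeR), CD68 at -4.16 (SE 0.35, adjusted p = 0.0001096), APOE at -1.55 (SE 0.12, adjusted p = 7.553e-05) and SPP1 at -0.62 (SE 0.18, adjusted p = 0.02929). In that setting 22.49% of all genes tested were called. Here too the library left out was low in genes that were high in the other miSCA7Stuffer libraries, which favours such calls.

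Other genes of the same pathways were taken from 6 lists of 105 genes in all, of which 101 had an identifier in the tables. The lists, like the genes described above, were chosen with earlier results of these data known. Their counts and adjusted p-values are thus no independent test. With AAV.miS1, 42 of the 91 that passed the filter rose and 0 fell, with a median log2 fold change of 1.77, beside 0.02 over all genes, of which 7.22% rose and 0.284% fell (edgeR, adjusted p under 0.05). Among genes of lipid uptake, storage and efflux 10 of 24 rose, and those with the smallest p were APOC1, an apolipoprotein (419.6 ± 365 CPM with AAV.miS1, n = 6, and 10.3 ± 13.9 CPM with vehicle, n = 4, SD, log2 fold change 6.60, SE 1.16), the lipid droplet coat protein PLIN2 (3.98, SE 0.79) and the oxidised lipoprotein receptor OLR1 (2.57, SE 0.42). Of the signalling and shedding partners of TREM2 and TYROBP 10 of 13 rose, among them RAC2, a small GTPase of blood cells (7.40, SE 1.38), and the kinases BTK (3.19, SE 0.61) and PIK3CD (2.598, SE 0.48). Of other genes of lipid-laden and lysosome-rich phagocytes 15 of 23 rose, among them the lysosomal cathepsin CTSZ (2.95, SE 0.58), the secreted chitinase-like protein CHI3L1 (2.77, SE 0.27) and the receptor kinase AXL (1.76, SE 0.34). The adjusted p of these named genes was 0.0275, and 0.00561 for CHI3L1.

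The other 3 lists were counted in the same way for AAV.miS1. Of the MiT/TFE transcription factors and lysosome regulators 2 of 11 rose, TFEC (3.56, SE 0.73, adjusted p = 0.0275) and the autophagy receptor SQSTM1 (0.73, SE 0.20, adjusted p = 0.0481). Of the binding partners of SPP1, LGALS3 and GPNMB 4 of 13 rose, with the smallest p for the integrin subunits ITGA4 (4.78, SE 0.87) and ITGB3 (3.11, SE 0.60) and the hyaluronan and osteopontin receptor CD44 (2.27, SE 0.42), each with adjusted p = 0.0275 in edgeR. Of the partners and regulators of LPL 3 of 9 rose, its cofactor APOC2 (7.61, SE 1.56), the maturation factor homologue LMF2 (0.65, SE 0.16) and the protease FURIN (1.44, SE 0.39) (APOC2 and FURIN overlapped between groups, as LPL did). These counts depended on single libraries. The 42 became 1, 1, 0 and 1 without vehicle replicates 1, 2, 3 and 4, 27 without AAV.miS1 replicate 2 and 1 without AAV.miS1 replicate 4, and it was 10 within the libraries over 15% unmapped.

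With StufferOnly, 68 of 99 pathway genes rose and 0 fell against empty capsid, with a median log2 fold change of 1.78, beside 0.02 over all genes, of which 11.6% rose and 3.81% fell. Among genes of lipid uptake, storage and efflux 18 of 25 rose, among them the oxysterol receptor NR1H3 (30.7 ± 2.58 CPM with StufferOnly and 1.07 ± 0.227 CPM with empty capsid, SD, n = 3 each, log2 fold change 4.85, SE 0.86), PLIN2 (3.25, SE 0.52) and the cholesterol exporter ABCG1 (1.15, SE 0.13). Of the TREM2 and TYROBP partners 14 of 16 rose, among them RAC2 (6.33, SE 0.95), PIK3CD (2.04, SE 0.36) and SYK, the kinase that docks on phosphorylated TYROBP (2.13, SE 0.41). Of the other phagocyte genes 21 of 25 rose, among them the cystatin CST7 (4.44, SE 0.60), CHI3L1 (2.33, SE 0.37) and the lysosomal protease CTSL (2.13, SE 0.32). Their adjusted p in edgeR was 0.0125 to 0.02.

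The other 3 lists were counted in the same way, and differences between lists were not tested. Of the MiT/TFE factors and lysosome regulators 8 of 11 rose (median log2 fold change 0.79), among them the Rag GTPase RRAGD (2.11, SE 0.41), the folliculin partner FNIP2 (1.56, SE 0.30) and SQSTM1 (0.82, SE 0.16). Of the binding partners 6 of 13 rose, among them ITGA4 (3.22, SE 0.60), the efferocytosis receptor MERTK (1.75, SE 0.40) and ITGA9 (1.36, SE 0.31). Of the LPL partners 2 of 11 rose, APOC2 (185 ± 87.2 CPM with StufferOnly and 2.41 ± 2.001 CPM with empty capsid, log2 fold change 6.24, SE 1.48) and FURIN (1.32, SE 0.25). The adjusted p of these genes was 0.0194 to 0.0284 in edgeR. The 68 became 0, 0 and 1 without empty capsid replicates 1, 2 and 3, and 0 and 2 without StufferOnly replicates 2 and 3. It stayed at 57 without StufferOnly replicate 1.

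No pathway gene was called in the other comparisons. With miSCA7Stuffer 0 of 99 passed against empty capsid, 64 had an unadjusted p under 0.05, DESeq2 called 46, and the median was 1.11 beside 0.07 over all genes. Over all 20882 genes the same counts were 4808 and 2339. Without miSCA7Stuffer replicate 1, 78 pathway genes were called, beside 32.42% of all genes. With intmiS1 0 of 100 passed against empty capsid, 7 had an unadjusted p under 0.05, DESeq2 called 0, and the median was 0.17 beside 0.01. Over all 21501 genes the counts were 1831 and 52. Without intmiS1 replicate 3, 4 pathway genes were called, beside 8.353% of all genes. Between intmiS1 and miSCA7Stuffer 0 of 100 passed, 49 had an unadjusted p under 0.05, DESeq2 called 31, and the median was -0.84 beside -0.08. Over all genes the counts were 4393 and 1467. Without miSCA7Stuffer replicate 1, 63 pathway genes were called, beside 22.49% of all genes, and 10 without intmiS1 replicate 3, beside 9.593%.

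The genes with profiles most like that of GPNMB were found over the 10 featureCounts DCN libraries of Study 2 among 17817 genes with a symbol, by the root mean square difference of log2 CPM profiles after centring each gene. These libraries include StufferOnly and empty capsid, whose difference helped choose the 10 genes, so the ranks of those genes are no independent result. Profiles were not scaled, so a gene with a smaller change than GPNMB ranks lower even with a like pattern. CHIT1 came first with 0.73, followed by CDH1 with 0.92, IGHM with 1.04, SOAT2 with 1.07, PLA2G2D with 1.08, ADGRE2 with 1.16, JCHAIN with 1.20 and SLAMF7 with 1.22. CDH1, which encodes the epithelial adhesion protein E-cadherin, was 102 ± 54.4 CPM with StufferOnly, 80.1 ± 69.4 with miSCA7Stuffer and 2.70 ± 1.53 with intmiS1, against 0.200 ± 0.168 with empty capsid (SD, n = 3 each). In miSCA7Stuffer replicates 1 to 3 CDH1 was 0.244, 115 and 125 CPM. SOAT2, an enzyme that esterifies cholesterol, was 26.0 ± 9.10 CPM with StufferOnly, 13.6 ± 11.9 with miSCA7Stuffer and 0.470 ± 0.450 with intmiS1, against 0.0723 ± 0.0754 with empty capsid. In miSCA7Stuffer replicates 1 to 3 SOAT2 was 0.061, 18.3 and 22.4 CPM. In Study 1, outside this ranking, SOAT2 was 2.37 to 53.3 CPM in AAV.miS1 libraries, against 0 to 0.559 with vehicle, and CDH1 was 9.13 to 355 CPM in AAV.miS1 libraries, against 0 to 10.3 with vehicle. The 10.3 CPM of CDH1 were 1 read of vehicle replicate 2. Of the other genes described here, MSR1 ranked at 32, LGALS3 at 35, CD68 at 40, TREM2 at 320, TYROBP at 483, APOE at 657, SPP1 at 3862 and LPL at 14573.

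General markers of microglia and macrophages were summed per library. Their level was 724 to 2986 CPM in AAV.miS1 libraries, against 461 to 827 with vehicle, and 980.2 to 1156 CPM with StufferOnly, 394 to 765 with miSCA7Stuffer and 403 to 557 with intmiS1, against 448 to 568 with empty capsid. The 827 CPM were in vehicle replicate 2. Replicates 1 to 3 of miSCA7Stuffer held 394, 765 and 651 CPM. Of the markers tested, 7 of 10 rose with AAV.miS1 and 7 of 11 with StufferOnly, with 0 falls in either. Over all genes tested, 7.22% rose with AAV.miS1 and 11.6% with StufferOnly. Calls over all genes ran from 0 to 2300 and from 0 to 2593 when 1 library was left out, so marker calls may also depend on single libraries. The myeloid transcription factor SPI1 rose by 3.43 (SE 0.57, adjusted p = 0.0275, edgeR) with AAV.miS1 and by 2.91 (SE 0.55, adjusted p = 0.0199, edgeR) with StufferOnly. The following genes of the list were singled out after their values were seen. P2RY12, a receptor of resting microglia, was 79.0 ± 15.4 CPM with AAV.miS1 (n = 6) and 78.3 ± 9.37 CPM with vehicle (n = 4, SD, log2 fold change 0.03, SE 0.18), and differed by -0.47 (SE 0.27, adjusted p = 0.256, edgeR) with StufferOnly. CX3CR1, the fractalkine receptor, was 38.9 ± 23.2 CPM with StufferOnly and 137 ± 21.7 CPM with empty capsid (SD, n = 3 each), without overlap, and the log2 fold change of -1.82 (SE 0.60) missed the threshold (edgeR adjusted p = 0.0739). With AAV.miS1, CX3CR1 differed by -0.74 (SE 0.53, adjusted p = 0.3675, edgeR) and overlapped with vehicle. TMEM119 was near 0 in all groups and at 0 in each intmiS1 library, so the microglial label was read from the other markers.

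**Figure D5:**
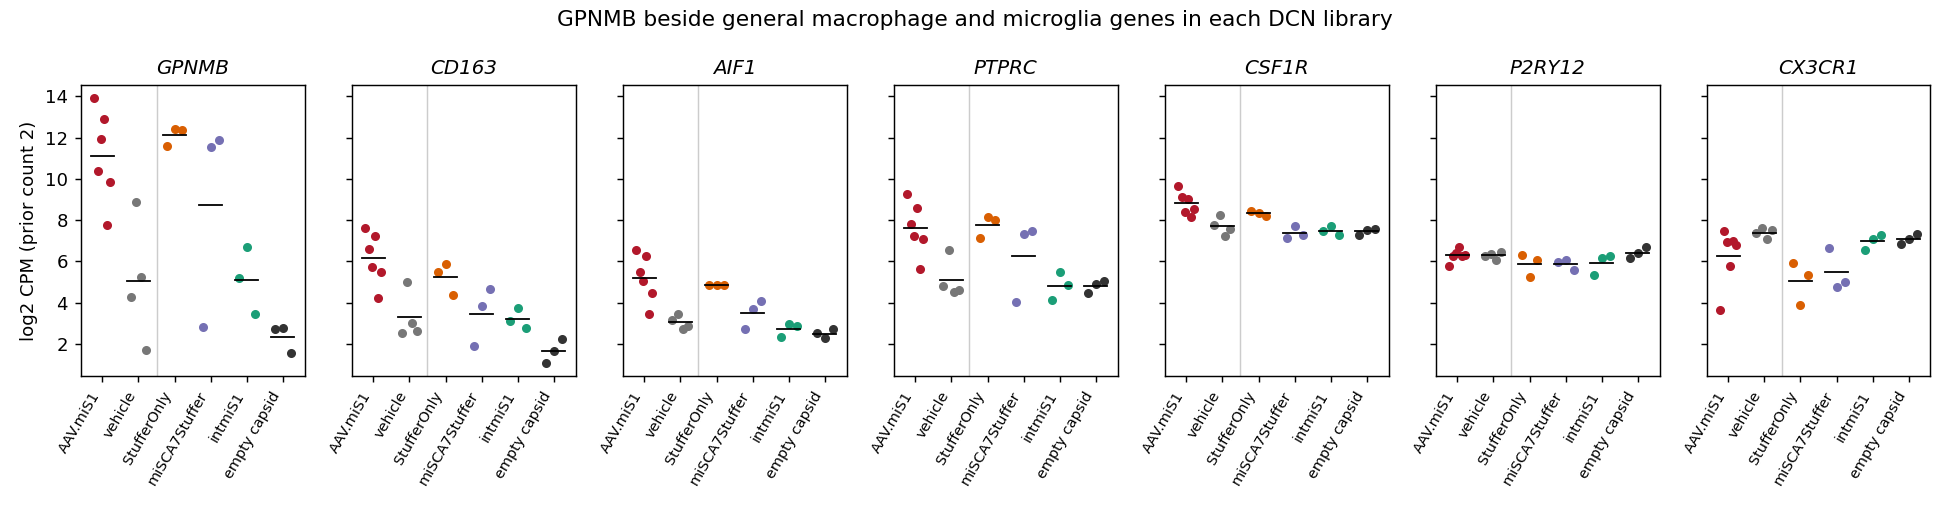
GPNMB beside 6 general macrophage and microglia genes in each DCN library, as log2 CPM with a prior count of 2 on a shared y axis and the groups on the x axis, with 1 point per library and a bar at the group mean. CD163, AIF1 and PTPRC have higher group means in AAV.miS1 and StufferOnly than in their controls, though AAV.miS1 replicate 5 lies below vehicle replicate 2 in CD163 and PTPRC. P2RY12 spans a narrow range that overlaps between the groups of each study, and CX3CR1 lies lower in StufferOnly than with empty capsid.

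Markers of other cells moved in the same libraries. Beside the counts of calls below, 7.22% of all genes tested rose and 0.284% fell with AAV.miS1. With StufferOnly 11.6% rose and 3.81% fell. Markers of B and plasma cells summed to 11.5 to 1558 CPM with AAV.miS1, against 2.31 to 41.4 with vehicle, and to 84.1 to 590.0 CPM with StufferOnly, 2.87 to 252 with miSCA7Stuffer and 4.002 to 34.6 with intmiS1, against 2.82 to 3.39 with empty capsid. The 41.4 CPM were in vehicle replicate 2, and miSCA7Stuffer replicates 1 to 3 held 2.87, 191 and 252 CPM. Of B and plasma cell markers, 1 of 2 tested rose with AAV.miS1 and 4 of 6 with StufferOnly, and of T cell markers 1 of 4 rose with AAV.miS1 and 4 of 6 with StufferOnly (summed level 58.0 to 90.0 CPM with StufferOnly, against 46.0 to 61.1 with empty capsid). Of monocyte and neutrophil markers 0 of 2 were called with AAV.miS1, CSF3R at 2.76 (SE 0.88) and VCAN at -0.61 (SE 0.44). Of 3 tested with StufferOnly only VCAN was called, and it fell (-0.99, SE 0.21, adjusted p = 0.0233, edgeR). FCN1 and CSF3R had positive estimates there, 2.80 (SE 1.305) and 1.16 (SE 0.66). S100A12 was at 0 in each of these groups. Neuron markers summed to 24.5 to 1492 CPM with AAV.miS1, against 1272 to 2010.0 with vehicle, and to 560.0 to 1066 CPM with StufferOnly, against 1459 to 1635 with empty capsid, with 0 of 8 called in either comparison. With miSCA7Stuffer they summed to 1821 CPM in replicate 1, 323 in replicate 2 and 278 in replicate 3, the last 2 being the lowest of Study 2. Oligodendrocyte markers summed to 11437 to 26534 CPM with AAV.miS1, against 24517 to 35866 with vehicle, and to 15627 to 18141 CPM with StufferOnly, against 26429 to 39504 with empty capsid. Of those, 0 of 6 were called with AAV.miS1 and 4 of 6 fell with StufferOnly. Astrocyte markers summed to 9370.3 CPM in replicate 1, 3154 in replicate 2 and 6275 in replicate 3 of miSCA7Stuffer, against 10869 to 11569.5 with empty capsid. In Study 1 they summed to 2639 to 25717 CPM with AAV.miS1, against 12727.5 to 15141 with vehicle. The 2639 CPM were in AAV.miS1 replicate 1, which also held the 24.5 CPM of neuron markers. Astrocyte markers gave 0 calls of 6 with AAV.miS1 and with StufferOnly, and endothelial markers 0 of 6 with AAV.miS1 and 2 rises of 6 with StufferOnly. GPNMB is also a melanocyte gene: of 5 melanocyte markers 1 was tested with AAV.miS1 and not called, and with StufferOnly MLANA alone rose (28.4 ± 6.95 CPM with StufferOnly and 0.265 ± 0.0345 CPM with empty capsid, SD, n = 3 each), while TYR was 0 to 0.65 CPM with StufferOnly and 0 with empty capsid. The part of these cell types in the levels of the 10 genes was not tested.

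Small RNA libraries of Study 1, from a cerebellar sample labelled Intermediate Deep with 3 libraries per group, gave a separate readout with few reads of the 10 genes, which summed to 150, 55 and 119 reads in AAV.miS1 libraries and to 58, 106 and 154 in vehicle libraries, of 4756968 to 10629988 per library. GPNMB had 0, 2 and 0 reads with AAV.miS1 and 1, 0 and 0 with vehicle. Only APOE, LPL, SPP1 and LGALS3 passed the filter, with log2 fold changes of 0.01 (SE 0.50), -0.27 (SE 0.75), -0.24 (SE 0.83) and -0.51 (SE 0.67), and none was called (edgeR, adjusted p = 1 each). Of all 8311 features edgeR called 0 (0%), and 52 had an unadjusted p under 0.05. A difference in these genes was not detectable at this depth.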

How the data were processed

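The authors deposited read counts per gene. Per the submitters' processing notes, STAR 2.6.0c and DESeq2 were used. Per the file headers, 10 Study 2 DCN libraries are featureCounts tables, in which a read that overlaps several genes counts in each. The Study 1 DCN libraries (column 4 read) and 2 intmiS1 libraries (column 2 read) are STAR gene tables. Genome build: not given in the sources used here, so no coordinates are printed. No column of other samples was found (0).

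The 10 genes and the lists were chosen with earlier results of these data known. Named genes are the 10, up to 3 called genes of smallest p per list and comparison, and the 8 most like GPNMB. Tests used edgeR 4.0.16 (quasi-likelihood F test, filterByExpr with minimum count 10 and total 15, TMM, Benjamini-Hochberg adjustment over all genes at 0.05) in R 4.3.3, with fold changes at a prior count of 0.125 and SE derived from the F statistic. The 9 libraries of StufferOnly, miSCA7Stuffer and empty capsid were fitted together, and all 12 Study 2 DCN libraries for intmiS1. Alternatives were DESeq2 1.42.0, RLE scaling, no filter, other STAR columns, an unmapped-read covariate, a replicate block and leaving out each library. The fits were tested on simulated data. Replicates are separate animals by their identifiers in DCN, and Study 1 small RNA labels name none, so its p-values measure only the spread between those samples. Figures were drawn with Python 3.11.15 and matplotlib 3.10.9.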

Additional observations from a re-analysis of the deposited data

Results flagged for a closer look

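Vehicle replicate 2 lay far from the other 3 vehicle libraries in GPNMB (475.6 CPM, against 2.64 to 37.7 in the others), in CHIT1 (237.8 CPM, against 3.96 to 17.9) and in LGALS3 (82.7 CPM, against 12.9 to 18.9). These are 3 of 20 combinations of gene and group examined, chance flags about 1 in 20, and all 3 come from the same library of 87741 counts. Its ratio of CD68 to GPNMB counts was 0.109, next to 0.119 to 0.289 in AAV.miS1 libraries and 0.385 to 2.38 in the other vehicle libraries. Its 1 vector read is 11.4 RPM of the counts in genes. Where these reads came from was not tested.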

How the results depend on the processing

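Counts of calls moved more than fold changes. With AAV.miS1 against vehicle, 1004 genes were called, 1786 by DESeq2, 148 with the unmapped share as covariate, 25 with that covariate and without vehicle replicate 2, 123 within the libraries over 15% unmapped, and 0 to 2300 when 1 library was left out. The 42 pathway genes became 9, 2 and 10 in those 3 unmapped-read settings and 0 to 62 when 1 library was left out, and the median log2 fold change of the 10 genes, 4.43, became 2.77 within the libraries over 15% unmapped, where LPL reversed to -0.25. The 2 settings that drop libraries by replicate 2 or by unmapped share were chosen after seeing the data. With StufferOnly, 3219 genes were called, 5329 by DESeq2 and 0 to 2593 when 1 library was left out, with 0 to 57 pathway genes. With miSCA7Stuffer against empty capsid, DESeq2 called 2339 genes, 46 pathway genes and 8 of the 10, and leaving out 1 library gave 0 to 6983, 0 to 78 and 0 to 9. With intmiS1 against empty capsid, DESeq2 called 52 genes, and leaving out 1 library gave 0 to 1852 genes and 0 to 4 pathway genes. Between intmiS1 and miSCA7Stuffer, DESeq2 called 1467 genes, 31 pathway genes and 7 of the 10, the reverse STAR column 2 genes, the featureCounts library alone 0, and leaving out 1 library gave 0 to 4976, 0 to 63 and 0 to 9. In small RNA 21 features were called without the filter, and 0 to 642 when 1 library was left out. The causes were not tested. A replicate block called 3299 genes with StufferOnly (66 pathway genes), 1 with miSCA7Stuffer, 0 with intmiS1 against empty capsid, 1 between intmiS1 and miSCA7Stuffer and 0 in small RNA. The labels tie the numbers to no shared animal or batch. Correlations of deviations between same-numbered libraries ran from -0.10 to 0.05 against empty capsid, were 0.14, 0.16 and -0.04 between intmiS1 and miSCA7Stuffer, and were 0.44, 0.18 and 0.25 between miSCA7Stuffer and StufferOnly, which were not compared with each other. The block changed no call on the 10 genes. A comparison of promoter motifs was not run. Depth limits vehicle replicate 2 (87741 counts) and the small RNA values.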

Other observations

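TMEM266 was the only gene called both in miSCA7Stuffer against empty capsid (log2 fold change 2.58, SE 0.21, adjusted p = 0.0229, edgeR quasi-likelihood F test) and in intmiS1 against miSCA7Stuffer (-2.15, SE 0.21, adjusted p = 0.0139). It was higher in each miSCA7Stuffer library, replicate 1 included, than in each empty capsid and each intmiS1 library, and it was singled out after its values were seen.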
